A study of Canis lupus familiaris with 51 samples.

Results

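Canine cutaneous mast cell tumors (MCTs) whose RNA carried a strong epidermal signal were compared with MCTs whose RNA carried little of it. Among the 39 tumors of the differentiated class, a score was the mean of the z-scored log2 signals of all probes named KRT5, KRT10, DSG1 or DSG3, and the 13 tumors with the highest score (high-score tumors) were set against the 13 with the lowest (low-score tumors), so that 26 of 51 tumors entered the comparison. KRT14 was the fifth marker of the score, but no probe carries it as a gene name, so the score rests on 9 probes of 4 genes: 5 probes of KRT5, 2 of DSG1 and 1 each of KRT10 and DSG3. The groups are therefore defined by measured values and are not groups of the study, and the 4 score genes are described without a test.

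The series profiled 51 MCTs of pet dogs, 1 tumor per 1-colour Agilent array, from RNA of pieces that the labels place in the center of the surgically removed mass. The classes differentiated (39 tumors) and undifferentiated (12 tumors) are the study's and not entries of the sample labels: 18 reference tumors (13 and 5) were chosen by histology and 33 were assigned by class prediction from expression. The tumors were spontaneous. The labels name no genotype or treatment, and the therapy of the dogs was not compared between the groups. Of the reference tumors, 7 were high-score and 3 low-score tumors. By the study's histology, T84 and the 3 low-score ones were Patnaik grade 2, and the other high-score ones grade 1. The groups thus differ in the grade of their reference tumors, and the part of grade was not tested. The high-score tumors came from 10 female and 3 male dogs aged 3 to 13 years (median 8), among them 5 boxers, 3 crossbred dogs and 1 Labrador retriever, and the low-score tumors from 8 female and 5 male dogs aged 4 to 12 years (median 8), among them 2 boxers, 4 crossbred dogs and 3 Labrador retrievers. Both groups spread over several slides and scan sessions: 24 of the 26 arrays were scanned in the 6 sessions that hold both groups, but 15 of the 26 lay on the 6 slides that hold both. Each array measured 43603 probes, and 43594 were tested once the 9 score probes were set aside. Between 66.8% and 74.8% of probes (median 71.1%) were bright enough to stand well above background in the high-score tumors, against 60.6% to 69.8% (median 67.9%) in the low-score tumors. With this share as a covariate, 1474 probes were called higher and 162 lower in the comparison below.

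Epidermis is a layered epithelium in which keratinocytes divide in the basal layer, where they make keratins 5 and 14 and sit on hemidesmosomes, and then move outwards, switch to keratins 1 and 10, and end as the dead cornified layer. Desmosomes, built from desmogleins, desmocollins, plakophilins and desmoplakin, hold the cells together, and kallikreins and their inhibitors govern how the outermost cells are shed. Canine cutaneous MCTs grow in the dermis and subcutis below this epithelium and around hair follicles, sebaceous glands and apocrine sweat glands, so a tissue piece can contain such structures next to the neoplastic mast cells.

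Of the 9 probes behind the score, 7 are printed here because the groups rest on them. The fifth KRT5 probe (A_11_P126066, chr27:5577064-5577123) and the second DSG1 probe (A_11_P052916, chr7:61142920-61142979) are named only. Coordinates are those of the array design, whose genome build is not named in the sources used here, and the design does not say which exon or part of a transcript a probe lies in. The pair of KRT5 probes below overlap, and capitals mark the 52 bases they share, so that they count as 2 probes of 1 short stretch at chr27:5576713-5576772 and chr27:5576721-5576780.
KRT5 (A_11_P0000030281): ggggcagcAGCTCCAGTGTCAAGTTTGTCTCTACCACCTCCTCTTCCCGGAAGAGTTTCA
KRT5 (A_11_P065457): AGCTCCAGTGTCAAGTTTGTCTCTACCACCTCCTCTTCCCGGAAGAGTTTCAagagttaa
A further KRT5 probe spans chr27:5576000-5576519 in the design, which is longer than the probe itself. The last one below, at chr27:5544320-5544379, lies apart from the rest on the same chromosome and followed the other score probes least (r = 0.69 with the score of the other 8 over the 39 tumors, against 0.93 to 0.99 for the others).
KRT5 (A_11_P179093): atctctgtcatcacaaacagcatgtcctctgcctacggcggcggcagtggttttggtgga
KRT5 (A_11_P065455): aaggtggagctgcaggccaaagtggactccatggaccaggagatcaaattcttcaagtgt
The files name all 5 KRT5 probes keratin 5, while RefSeq (UU_Cfam_GSD_1.0) now gives their gene ID the symbol KRT71, another type II keratin, so their name is uncertain. The probes of KRT10 (chr9:25195305-25195364) and of DSG1 (chr7:61140678-61140737) and DSG3 (chr7:61026498-61026557), neighbors in the desmoglein cluster, show the genes of the outer and inner layers that set the score.
KRT10 (A_11_P0000020203): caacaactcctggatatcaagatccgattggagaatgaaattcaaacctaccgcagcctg
DSG1 (A_11_P0000019667): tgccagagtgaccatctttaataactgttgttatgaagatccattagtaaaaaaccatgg
DSG3 (A_11_P0000019709): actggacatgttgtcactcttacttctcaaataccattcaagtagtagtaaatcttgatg

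The score ran from -1.28 to 1.35 over the 39 differentiated tumors. It was 0.87 to 1.35 (median 0.99) in the high-score tumors and -1.28 to -0.92 (median -1.11) in the low-score tumors. The lowest tumor inside the high-score group had a score of 0.87 and the highest outside it 0.85, while the highest inside the low-score group had -0.92 and the lowest outside it -0.90. Both edges thus fall between close neighbors, and 13 tumors in between filled the range from -0.90 to 0.85. The undifferentiated tumors, which played no part in the ranking, covered the same range from -1.25 to 1.25, with 3 of the 12 at or above the edge of the high-score group, 4 at or below that of the low-score group and 5 between them. The mean score was 0.00 ± 0.95 (SD, n = 39) in the differentiated class and 0.03 ± 1.06 (SD, n = 12) in the undifferentiated class. These means are a description, since the score is centered on the differentiated class.

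**Figure D1:**
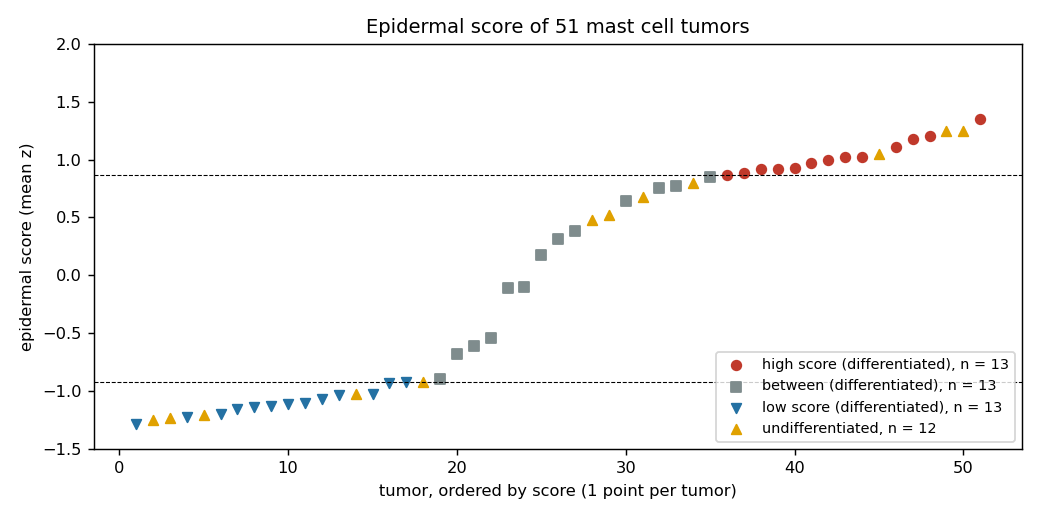
Epidermal score (mean z-score of 9 probes, y axis) of each of the 51 tumors, ordered by score (x axis), with the group or class of each tumor by color and symbol and the edges of the high-score and low-score groups as dashed lines. The 12 undifferentiated tumors spread from -1.25 to 1.25, over the same range as the differentiated ones.

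The score genes chose the groups, and their levels are given as a description. Levels below are log2 normalized signals, given as the lowest, the median and the highest tumor of a group of 13. KRT10, a keratin of the suprabasal layers, was at 13.69, 15.78 and 16.98 in the high-score tumors and at 1.59, 1.60 and 3.18 in the low-score tumors, where none of the 13 arrays had it well above background. The KRT5 probe at chr27:5576000-5576519 was at 14.49, 15.18 and 16.61 against 7.37, 7.87 and 8.19. This KRT5 probe was well above background on all 13 low-score arrays, but the KRT5 probes differed in this. The brightest one, A_11_P126066, was at 16.80, 17.21 and 17.75 against 1.63, 5.85 and 9.23. It was well above background on 7 low-score arrays, so a kept signal of basal keratin does not hold for every probe. DSG1, the desmoglein of the upper layers, was at 9.82, 11.36 and 13.13 against 1.81, 1.91 and 2.99. DSG3, the desmoglein of the lower layers, was at 9.38, 10.27 and 11.34 against 1.63, 1.66 and 4.51. The KRT5 probe that lies apart was the dimmest of its gene, at 4.92, 8.04 and 11.17 against 2.10, 2.96 and 4.54.

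KRT14, the basal partner of keratin 5, is a marker the score could not use, because its probes are named only in their descriptions. Of its pair of overlapping probes at chr9:24514603-24514662 and chr9:24514612-24514671, the first was at 15.45, 16.28 and 17.17 in the high-score tumors and at 9.70, 10.54 and 11.41 in the low-score tumors. The groups did not overlap, and the high-score tumors were higher by 5.91 ± 0.21 log2 units (SE, limma, adjusted p = 8e-18). The second probe gave a difference of 7.63 ± 0.19 (adjusted p = 6e-21). The probes of KRT14 ran with the score at r = 0.98 and 0.99 over the 39 differentiated tumors. A difference between groups cut on that score was thus bound to appear, and the p-values are no independent check of the groups. Even in the low-score tumors KRT14 was well above background on all 13 arrays. In bulk RNA, fewer keratinocytes and less RNA per keratinocyte cannot be told apart.

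Across the array, 2107 of 43594 tested probes were called higher in the high-score tumors (4.83%) and 316 lower (0.725%). A call needed an adjusted p (limma, Benjamini-Hochberg) below 0.01 together with a change of 2-fold or more. The probes called higher carried 783 gene symbols and those called lower 92. Size also differed between the directions: 665 of the probes called higher rose by at least 8-fold, while the largest fall among the probes called lower was 6.31-fold. The levels of the groups did not overlap for 683 of the 2107 probes called higher and for 2 of the 316 called lower, against 695 (1.59%) and 11 (0.0252%) of all tested probes. For 413 of the probes called higher, the low-score tumors had no array well above background, so that only a lower bound of the fold can be given. Where few low-score arrays stood well above background, the size of a difference depends on the background level. This held with 1 array for KRT15, DMKN, IVL, WFDC5, BNC1, EPHA1, CIDEC and ANLN, 2 for KRT1, KRT24, COL17A1 and TFAP2C, 3 for PKP3, and 4 for PERP, ERBB3, AZGP1 and MLANA. Because the groups were cut on epidermal genes, transcripts of the same cells were bound to differ between them, and the p-values of such genes measure how closely they follow the score. The median difference over all tested probes was -0.14 log2 units, and with 1 probe per gene it was -0.12 over 11632 genes, 6.22% of which were called higher and 0.593% lower. The values of gene lists below are read beside these. With slide as a fixed block, which rests on the 6 slides holding both groups, 981 probes were called higher, all of them among the 2107, and 22 lower, 17 of them among the 316.

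**Figure D2:**
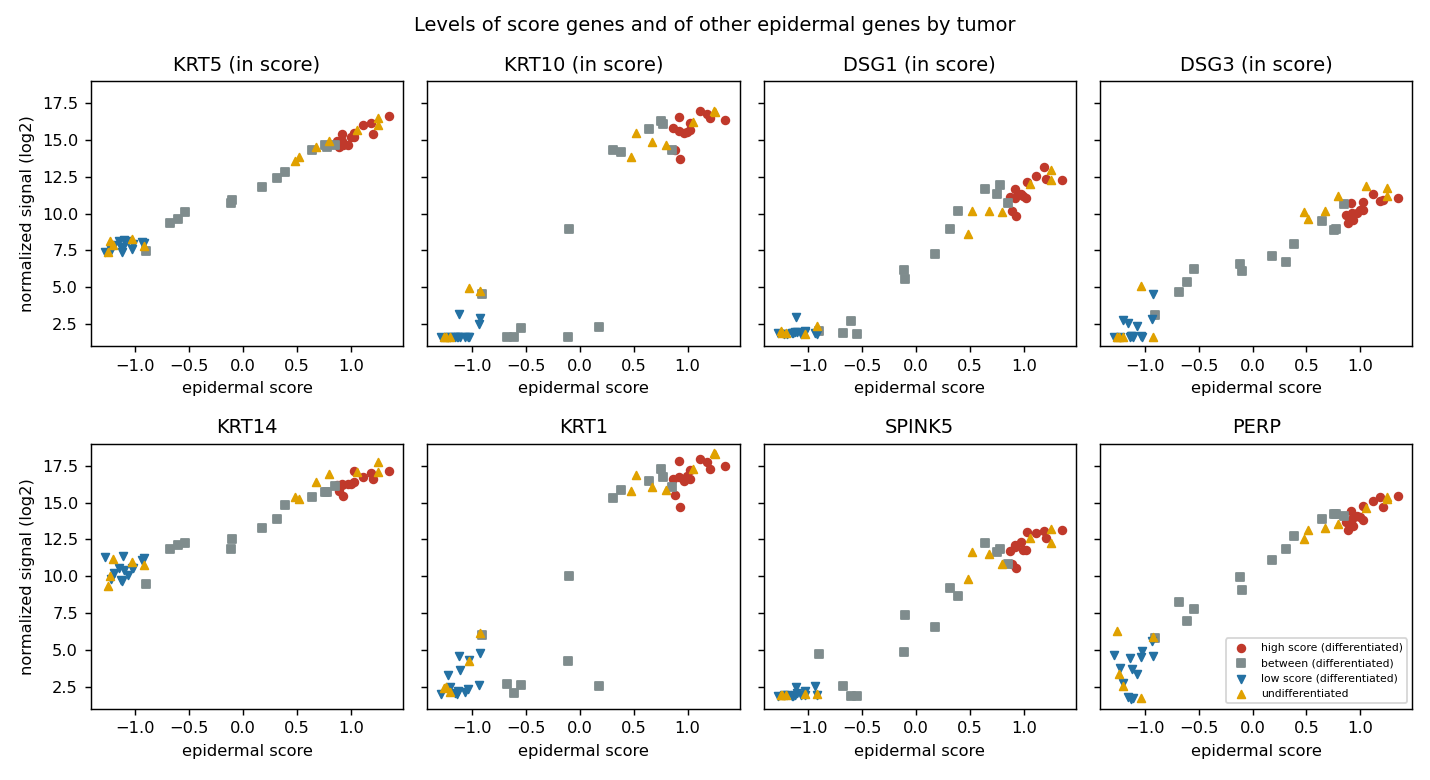
Normalized signal (log2, y axis) of 4 score genes and 4 genes outside the score against the epidermal score (x axis), 1 point per tumor for all 51 tumors. KRT14, SPINK5 and PERP climb along the score, while KRT10 and KRT1 stay low in all but 1 of the tumors with a score of 0.18 or less and are high in every tumor from 0.31 upwards.

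The 10 named genes with the largest increase were all genes known from keratinocytes, and their order depends on the background level of the low-score tumors. KRT1, the suprabasal partner of keratin 10, lies at chr27:5430687-5430746 and was at 14.71, 16.84 and 17.99 in the high-score tumors and 2.02, 2.47 and 4.82 in the low-score tumors. Its difference of 13.89 ± 0.37 (SE, adjusted p = 3.8e-20) was set against a group near background, and its groups did not overlap. KRT15, a basal keratin of epidermis and hair follicle, was at 14.45, 15.17 and 16.77 in the high-score tumors and 1.90, 2.08 and 6.42 in the low-score tumors, a difference of 12.46 ± 0.42 (SE, adjusted p = 2.2e-18). KRTDAP, a secreted protein of differentiating keratinocytes, differed by 11.01 ± 0.25 (SE, adjusted p = 2e-21) and was well above background in every tumor of both groups. DMKN, the secreted dermokine of the upper layers, differed by 10.94 ± 0.34 (adjusted p = 4.2e-19), while its brightest probe, well above background on 9 low-score arrays, differed by 7.64. PERP, a desmosome component, differed by 10.64 ± 0.41 (SE, adjusted p = 3.4e-17). SPINK5, the inhibitor of epidermal kallikreins, differed by 10.09 ± 0.23 (SE, adjusted p = 2e-21) with a probe at background in the low-score tumors. Its brightest probe was well above background on all 13 low-score arrays and differed by 7.98 ± 0.22 (SE, adjusted p = 5.5e-20). KLK7, a kallikrein that cleaves the contacts of cornified cells, was not well above background in any low-score tumor and was at least 213-fold higher (adjusted p = 2.5e-21) and DAPL1, a gene of epithelial differentiation, at least 199-fold (adjusted p = 3.8e-20). IVL, the envelope protein involucrin, differed by 9.68 ± 0.39 (SE, adjusted p = 1.1e-16) and KRT2, a keratin of the upper epidermis, by 9.55 ± 0.37 (SE, adjusted p = 3.9e-17). The groups overlapped for none of these 10 genes.

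The same genes varied with the score in tumors that the rule had placed in neither group. In the 13 differentiated tumors in between and the 12 undifferentiated tumors, a slope of the level on the score was fitted with the class as a covariate, and 1166 of 43594 probes (2.67%) had a positive and 203 (0.466%) a negative slope with an adjusted p below 0.05. With 1 probe per gene these were 437 (3.76%) and 56 (0.481%) of 11632 genes. Of the 2107 probes called higher, 2020 had a positive slope and 903 passed that test. Of the 316 called lower, 263 had a negative slope but only 7 passed. Over all tested probes 16882 of 43594 slopes were positive. The slope of KRT14 was 3.08 ± 0.14 log2 units per unit of score (SE, adjusted p = 5.9e-14), that of KRT1 7.27 ± 0.67 (SE, adjusted p = 2.7e-08) and that of PERP 4.90 ± 0.24 (SE, adjusted p = 3.7e-13). All 10 named genes above passed with a positive slope. The score of these tumors comes from the same score probes, and the 13 in between also entered its scaling. Genes of the same cells were thus bound to follow it, and these p-values are no independent check of the groups.

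The undifferentiated class shows the spread without any choice by class. In its 3 tumors with a score at or above the edge of the high-score group, KRT14 was at 17.07 to 17.77, KRT1 at 17.27 to 18.35 and SPINK5 at 12.23 to 13.22. In its 4 tumors at or below the edge of the low-score group they were at 9.31 to 11.15, 2.15 to 4.23 and 1.92 to 2.01. Undifferentiated tumors therefore reached the levels of both differentiated groups. These values are a description, since the tumors were sorted by the score itself. In a fit over all 51 tumors, the slope on the score differed between the classes for 2 of 43594 probes (0.00459%), both without a gene name.

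Basal and suprabasal keratins did not climb along the score together in all tumors. Of the 13 differentiated tumors in between, 5 tumors with scores from -0.68 to 0.18 (T48, T55, T56, T106 and T131) had KRT10 at 1.60 to 2.32 and KRT1 at 2.07 to 4.27, close to the low-score tumors. In the same 5 tumors KRT14 was at 11.84 to 13.31 and PERP at 6.96 to 11.09, above the highest low-score tumor for each gene. KRT19, a keratin of simple and glandular epithelium, was at 11.32 to 13.65 in them and PIP, a secreted protein of apocrine glands, at 11.14 to 14.35. A sixth tumor in that range of scores, T89, had KRT10 at 8.96 and KRT1 at 10.02, between the groups. These tumors were picked after their values were seen and their number is a description. From a score of 0.31 upwards every tumor had KRT10 at 13.69 or more.

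The genes whose levels ran most closely with the score over the 39 differentiated tumors were, by Pearson's r, DSP (0.99), KRT14 (0.99, the second probe) and KLC3, a kinesin light chain (0.99). They were followed by CELSR2, KLK7, PPP1R14C, FXYD3, PERP, SPINK5 and RHBG, each with an r of 0.98. CELSR2 is a cadherin of planar polarity, FXYD3 a regulator of the sodium pump and RHBG an ammonium transporter. The correlations are a description over tumors that share slides, scan sessions and a score, with no test.

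Genes of the basal layer and its anchorage rose almost as a whole. Of 15 listed genes 13 were measured, 12 of them were called higher and none lower, and the median difference was 2.57. Besides KRT15, KRT17, a keratin of the hair follicle and of activated keratinocytes, was at 11.06, 12.60 and 14.09 in the high-score tumors and 1.77, 4.19 and 5.21 in the low-score tumors, a difference of 8.50 ± 0.30 (SE, adjusted p = 5.5e-18). SFN, the epithelial 14-3-3 protein stratifin, differed by 6.70 ± 0.28 (SE, adjusted p = 3.4e-16) and COL17A1, the hemidesmosomal collagen, by 3.72 ± 0.31 (SE, adjusted p = 4e-10). The differences were smaller for the transcription factor TP63 (1.53) and the integrin ITGB4 (1.75), both called, and plectin (PLEC, 0.31) was not called. In the other 25 tumors 10 of 13 genes of the list passed with a positive slope.

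Of 9 measured keratins of the suprabasal layers and of other squamous epithelia, 5 were called higher, with a median difference of 6.2. That median is the value of the brightest KRT24 probe, and with the mean of all probes of each gene it was 1.95. KRT16, a keratin of wounded and thick skin, was at 9.37, 10.70 and 13.50 in the high-score tumors and 2.02, 2.13 and 3.61 in the low-score tumors, at least 119-fold higher (adjusted p = 7.4e-16). KRT23 was at least 31.1-fold higher (adjusted p = 4.7e-18), and KRT24 was called as well. The members that were not called were KRT9, KRT13, KRT76 and a probe described as keratin 6, with differences from -0.22 to 1.18. KRT9 is known from footpads and KRT76 from oral epithelium. In the other 25 tumors 4 of 9 genes passed with a positive slope.

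Desmosome genes other than those of the score rose in 7 of 8 measured cases (12 listed), with a median difference of 6.31. DSP, which ties desmosomes to keratin filaments, was at 13.23, 13.78 and 15.18 in the high-score tumors and 4.35, 5.42 and 6.61 in the low-score tumors, a difference of 8.60 ± 0.24 (SE, adjusted p = 6.5e-20). PKP3, an armadillo protein of the plaque, differed by 8.58 ± 0.38 (SE, adjusted p = 9.7e-16) and CDSN, the glue protein of cornified cells, by 6.82 ± 0.41 (SE, adjusted p = 5.3e-13). PKP2, a plakophilin also found outside epidermis, differed by 1.28 and was not called (adjusted p = 0.28). The list of adherens and tight junctions had 8 of 17 measured genes called higher and a median of 0.93. The tight junction adaptor cingulin (CGN) differed by 8.27 ± 0.51 (SE, adjusted p = 1.4e-12) and TJP3, another adaptor, by 3.24 ± 0.27 (SE, adjusted p = 6.4e-10). The claudin CLDN8 was at least 5.41-fold higher (adjusted p = 6.4e-09). In the other 25 tumors 6 of 8 desmosome genes and 4 of 17 junction genes passed with a positive slope, and TJP3 and CLDN8 did not.

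Most measured genes of the outer layers rose. Of 36 listed genes of the cornified envelope 12 were measured, LOR and FLG not among them. Of these 12, 11 were called higher with a median of 4.68, and 11 passed with a positive slope in the other 25 tumors. S100A14, a calcium-binding protein, was at 11.66, 12.84 and 13.85 in the high-score tumors and 1.65, 4.71 and 6.22 in the low-score tumors, a difference of 8.10 ± 0.36 (SE, adjusted p = 8.6e-16). The exception was CASP14, the caspase of cornification, at -0.32 (adjusted p = 0.41), measured with a probe named from its description. Of 14 measured kallikreins and protease inhibitors (29 listed) 11 were called higher, with a median of 4.56. KLK6 was at least 40.6-fold higher (adjusted p = 3.4e-15) and WFDC5, a protease inhibitor, differed by 8.74 ± 0.39 (SE, adjusted p = 7.8e-16). Barrier lipid synthesis was mixed, with 4 of 8 measured genes (26 listed) called higher. The ceramide synthase CERS3 was at least 34-fold higher (adjusted p = 8.4e-18), ELOVL4, which elongates very long chain fatty acids, differed by 6.90 ± 0.44 (SE, adjusted p = 4.7e-12), ELOVL7 by 2.35 ± 0.35 (SE, adjusted p = 1.4e-05) and CERS4 by 1.76 ± 0.33 (SE, adjusted p = 0.00028). With slide as a fixed block ELOVL7 (2.36, adjusted p = 0.0105) and CERS4 (1.26, adjusted p = 0.073) were not called, nor was CERS4 with the share of probes above background as a covariate (1.36, adjusted p = 0.023). UGCG, SMPD1 and SULT2B1 were among those not called, but the second probe of SULT2B1 was, with a difference of 6.93. A positive slope passed in the other 25 tumors for 10 of 14 kallikreins and inhibitors and 3 of 8 genes of barrier lipids, and CERS4 did not.

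Regulators of keratinocyte gene expression were called higher in 15 of 17 measured cases, with a median of 4.36, and 15 of 17 passed with a positive slope in the other 25 tumors. ELF5, an epithelial ETS factor, was at 7.03, 7.95 and 10.26 in the high-score tumors and 1.67, 1.71 and 1.74 in the low-score tumors, at least 18-fold higher (adjusted p = 3.6e-16). The AP-2 factor TFAP2C differed by 6.11 ± 0.34 (SE, adjusted p = 1.4e-13), TFAP2A was at least 8.78-fold higher (adjusted p = 4.6e-19) and BNC1, a zinc finger protein of basal keratinocytes, differed by 4.90 ± 0.31 (SE, adjusted p = 2.3e-12). Receptors of keratinocytes were called higher in 10 of 16 cases, with a median of 1.63. The ephrin receptor EPHA1 differed by 6.83 ± 0.32 (SE, adjusted p = 3.9e-15), FGFR2, the receptor of keratinocyte growth factor, by 4.43 ± 0.52 (SE, adjusted p = 3.6e-07), the decoy receptor IL1R2 by 3.85 ± 0.42 (SE, adjusted p = 9.8e-08) and ERBB3 by 3.25 ± 0.23 (SE, adjusted p = 2.5e-11). A positive slope passed for 8 of 16 receptors in the other 25 tumors, and IL1R2 did not.

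The list of secreted signals of keratinocytes had 8 of 20 measured genes called higher and a median of 0.39. AREG, a ligand of the EGF receptor, was at least 4.32-fold higher (adjusted p = 3.4e-15). CCL20 and CCL27, chemokines that keratinocytes make, differed by 4.10 ± 0.58 (SE, adjusted p = 8.6e-06) and 3.69 ± 0.34 (SE, adjusted p = 4.9e-09), and WNT3 by 3.58 ± 0.29 (SE, adjusted p = 3.2e-10). In the other 25 tumors 2 of 20 genes of the list passed with a positive slope, CCL27 and WNT3, while AREG (adjusted p = 0.28) and CCL20 (adjusted p = 0.054) did not. KITLG, the stem cell factor on which mast cells depend, was named after its value was seen. It was at 7.75, 8.22 and 8.94 against 5.60, 7.50 and 8.49, with overlapping groups, and differed by 1.07 ± 0.25 (SE, adjusted p = 0.0026). Its slope in the other 25 tumors, 0.16 ± 0.23, did not pass (adjusted p = 0.81). With slide as a fixed block the difference was 0.75 (adjusted p = 0.19), and with the share of probes above background as a covariate 0.83 (adjusted p = 0.075). It also fell below 2-fold when T12.1 or T51 was left out.

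**Figure D3:**
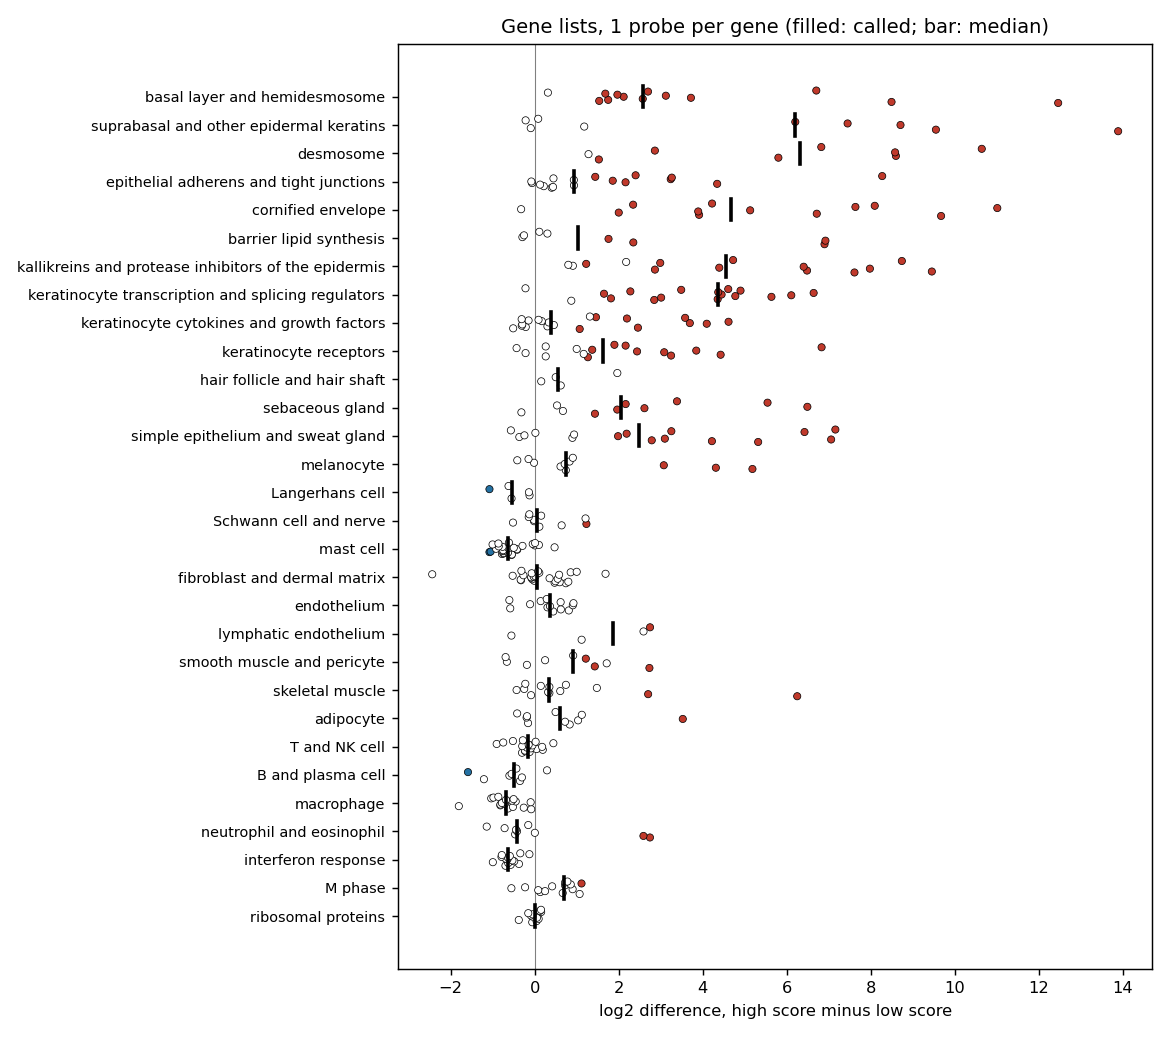
Log2 difference between high-score and low-score tumors (x axis) for the measured genes of 30 lists (rows), 1 probe per gene. Filled points were called (red higher, blue lower) and bars mark list medians, which lie above 2 for the basal, suprabasal, desmosome, cornified envelope, kallikrein, regulator, sebaceous and sweat gland lists and near 0 for ribosomal proteins.

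Of the genes of skin appendages, those of sweat and sebaceous glands included many that were called higher. Few genes of hair follicle were measured. The list of simple epithelium and sweat gland had 10 of 16 measured genes called higher and a median of 2.49. AZGP1, a secreted glycoprotein of apocrine glands, was at 3.90, 10.91 and 12.18 in the high-score tumors and 1.82, 2.26 and 8.51 in the low-score tumors, a difference of 7.16 ± 0.83 (SE, adjusted p = 2.6e-07). KRT19 differed by 7.06 ± 1.09 (SE, adjusted p = 2.4e-05), KRT7, another keratin of simple and glandular epithelium, by 5.32 ± 0.71 (SE, adjusted p = 2.8e-06) and PIP by 6.42 ± 1.02 (SE, adjusted p = 3.7e-05). The tumors varied widely in these genes, and PIP ranged from 3.58 to 13.65 in the low-score tumors alone and its groups overlapped. With slide as a fixed block KRT19 differed by 6.60 (adjusted p = 0.0103) and PIP by 5.25 (adjusted p = 0.057), and neither was called. Of the sebaceous list 7 of 10 measured genes were called higher, with a median of 2.06. ACSBG1, an acyl-CoA synthetase, differed by 6.49 ± 0.35 (SE, adjusted p = 4.9e-14), the lipid droplet protein CIDEA by 5.54 ± 0.61 (SE, adjusted p = 1e-07), PM20D1 by 3.39 ± 0.48 (SE, adjusted p = 6.8e-06) and the fatty acid synthase FASN by 2.61 ± 0.28 (SE, adjusted p = 6e-08). Of 36 listed genes of hair follicle and shaft 4 were measured, and none was called with its brightest probe. Another probe of MSX2, a gene of this list, was called higher with a difference of 3.81. KRT71 is also listed and counted as unmeasured, although RefSeq gives the KRT5 probes of the score that symbol. The list therefore says little about follicle tissue. LHX2 and SOX9, transcription factors of follicle stem cells, differed by 0.62 ± 0.15 (SE, adjusted p = 0.0029) and 0.15 ± 0.12 (SE, adjusted p = 0.37).

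The appendage genes were also fitted on the score in the 25 tumors of neither group. There 3 of 16 genes of simple epithelium and sweat gland and 2 of 10 of the sebaceous list passed with a positive slope, against 11 of 12 of the cornified envelope. The slope of KRT19 was 2.84 ± 0.75 (SE, adjusted p = 0.034) and that of PIP 2.57 ± 0.78 (SE, adjusted p = 0.076). The difference between lists was not tested.

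One high-score tumor, T112, stood apart in the appendage genes. Its KRT14 of 16.21 and KRT10 of 16.55 lay within the range of the other high-score tumors. Its PIP was at 7.74, its KRT19 at 4.17, its CIDEA at 8.44 and its MYH11 at 6.00, each the lowest of the 13 high-score tumors. Without this tumor 2242 probes were called higher and 409 lower. It was picked out after its values were seen.

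**Figure D4:**
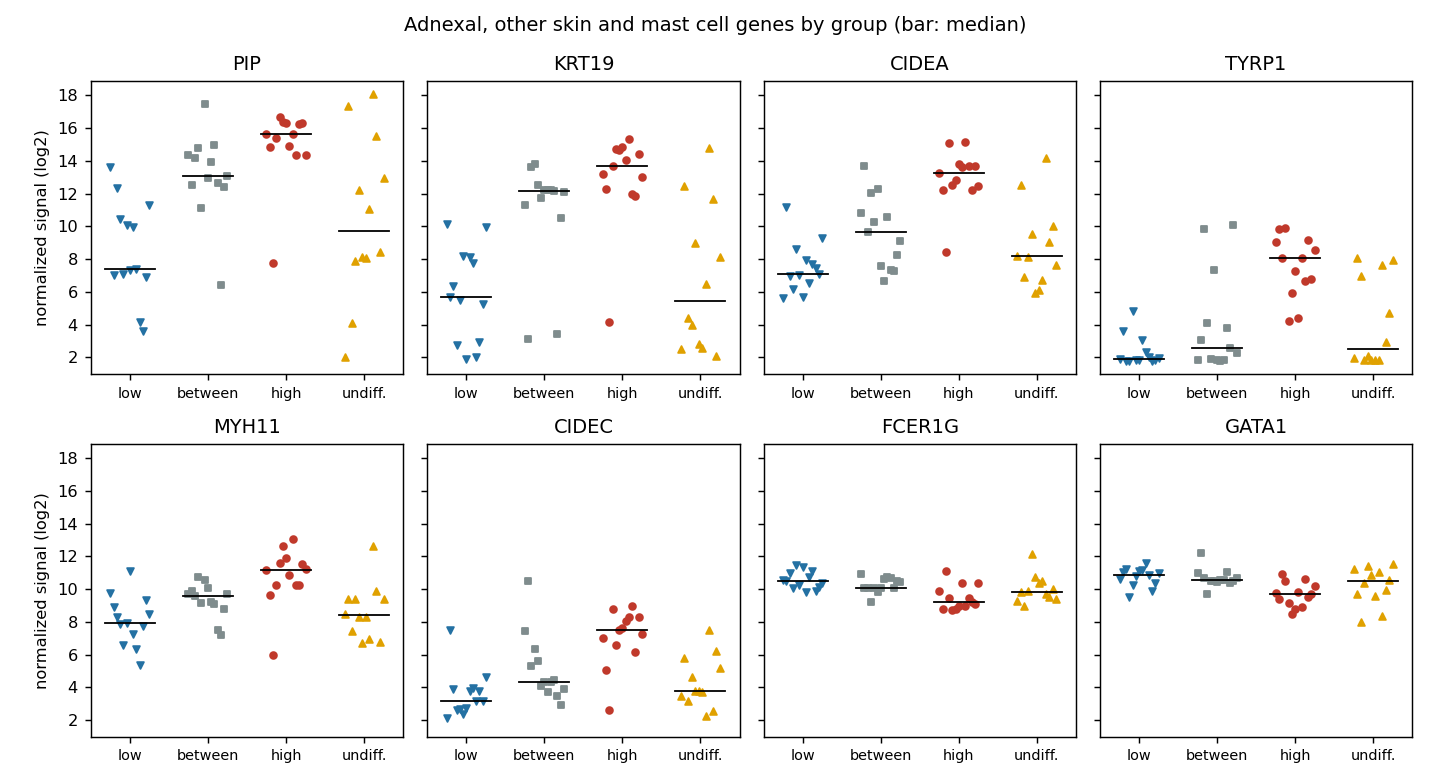
Normalized signal (log2, y axis) of 8 genes in the 13 low-score, 13 in-between, 13 high-score and 12 undifferentiated tumors (x axis), 1 point per tumor with the median as a bar. PIP, KRT19, CIDEA, TYRP1, MYH11 and CIDEC are higher in most high-score tumors, with 1 high-score tumor far below the rest for PIP, KRT19 and MYH11, while FCER1G and GATA1 differ by about 1 log2 unit.

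Markers of other cells of skin moved in part. Of 11 measured melanocyte genes 3 were called higher: TYRP1, an enzyme of melanin synthesis, at least 10.2-fold (adjusted p = 8.4e-08), DCT, another, at least 5.27-fold (adjusted p = 1.2e-09), and the melanosome antigen MLANA by 3.07 ± 0.47 (SE, adjusted p = 2.3e-05). The list median was 0.74. Of 9 measured smooth muscle and pericyte genes 3 were called higher: MYH11, the smooth muscle myosin, by 2.73 ± 0.62 (SE, adjusted p = 0.002), TAGLN by 1.43 ± 0.34 (SE, adjusted p = 0.0027) and MCAM by 1.22 ± 0.33 (SE, adjusted p = 0.0081). Of 13 skeletal muscle genes 2 were called higher. ACTA1, skeletal alpha-actin, was at 3.53, 10.71 and 13.49 in the high-score tumors and 2.05, 3.97 and 9.73 in the low-score tumors, overlapping groups that differed by 6.25 ± 0.87 (SE, adjusted p = 6e-06). MYH2 was at least 1.25-fold higher (adjusted p = 0.003) with a probe well above background on 6 high-score arrays. It was the 1 called probe of 5 for this gene, and the lowest difference among them was -0.35. CIDEC, a lipid droplet protein and the 1 called gene of 10 adipocyte genes, differed by 3.52 ± 0.59 (SE, adjusted p = 8.3e-05). RELN, called among 4 genes of lymphatic endothelium, differed by 2.75 ± 0.62 (SE, adjusted p = 0.002), and MBP, a myelin protein, was the 1 called of 10 Schwann cell genes, at 1.23 ± 0.22 (SE, adjusted p = 0.00016). TYRP1 and DCT were still called with slide as a fixed block, but MYH11 (1.32, adjusted p = 0.33), ACTA1 (4.83, adjusted p = 0.0176), CIDEC (2.53, adjusted p = 0.12) and the other called genes of this paragraph were not, and MCAM was lost in 17 of the 26 fits that left out 1 tumor (adjusted p up to 0.0157). With the share of probes above background as a covariate MYH11 (2.17, adjusted p = 0.061), TAGLN (1.08, adjusted p = 0.083), MCAM (0.88, adjusted p = 0.16), MYH2 (2.14, adjusted p = 0.075) and RELN (2.34, adjusted p = 0.047) were not called either. In the other 25 tumors MLANA passed with a positive slope (adjusted p = 0.021), and the other called genes of this paragraph did not, TYRP1 at an adjusted p of 0.097 and DCT at 0.13. The part of such tissue in the differences above was not tested.

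Mast cell genes differed by small amounts, mostly below 0. Of 46 listed genes 27 were measured, and CPA3, TPSAB1, HDC and GATA2 were among those without a probe of that name. Of the 27 measured genes 23 had a difference below 0, 2 were called lower and none higher. The median difference was -0.64, against -0.12 over all genes, of which 64% had a difference below 0. FCER1G, the signaling chain of the IgE receptor, was at 8.71, 9.22 and 11.09 in the high-score tumors and 9.79, 10.47 and 11.47 in the low-score tumors, a difference of -1.08 ± 0.25 (SE, adjusted p = 0.0023). GATA1, a transcription factor of mast cells, differed by -1.05 ± 0.25 (SE, adjusted p = 0.0032). KIT, the receptor of stem cell factor, named after its value was seen, was at 12.31, 12.98 and 13.54 against 12.50, 13.42 and 14.58, a difference of -0.55 ± 0.21 that was not called (adjusted p = 0.057). The summed signal of the list, on the log2 scale, was 19.90 to 20.41 in the high-score and 20.09 to 20.65 in the low-score tumors, with overlapping groups. Neither was called with slide as a fixed block, FCER1G at -0.67 (adjusted p = 0.25) and GATA1 at -0.75 (adjusted p = 0.19), nor with the share of probes above background as a covariate, at -0.83 (adjusted p = 0.072) and -0.90 (adjusted p = 0.061). With scan session as a fixed block FCER1G (-1.12, adjusted p = 0.0112) and GATA1 (-0.89, adjusted p = 0.0113) were not called. GATA1 also came below 2-fold with sex as a covariate (-0.997) and when T135, T47, T50 or T81 was left out.

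Other immune and stromal lists held few calls. None of 17 macrophage genes was called, with all below 0, as were 64% of all genes, and a median of -0.68, TYROBP at -0.54 ± 0.21 (SE, adjusted p = 0.054) and LYZ at -0.45 ± 0.35 (SE, adjusted p = 0.34). The 15 genes of the interferon response were likewise all below 0, beside that share of all genes, and none was called (median -0.63). OAS2 differed by -0.65 ± 0.26 (SE, adjusted p = 0.065). T and NK cell genes had a median of -0.17 with no call, with NKG7 at 0.44 and CD3D at -0.30. Of 8 B and plasma cell genes, FCRL1, a receptor of B cells, was called lower. Of 9 listed Langerhans cell genes 5 were measured, CD207 and CD1A not among them. FCER1G, which mast cells share, was the 1 called, lower, and the median of the 5 was -0.55. S100A8 and S100A9, calcium-binding proteins that both neutrophils and activated keratinocytes make, were the 2 called of 9 neutrophil and eosinophil genes, higher by 2.74 ± 0.63 (SE, adjusted p = 0.002) and 2.59 ± 0.67 (SE, adjusted p = 0.0057), while the list's median was -0.42. Neither was called with slide as a fixed block (3.42, adjusted p = 0.041, and 3.46, adjusted p = 0.069) or with the share of probes above background as a covariate (2.27, adjusted p = 0.054, and 2.15, adjusted p = 0.092), and S100A9 was lost without T103, T113, T130, T88 or T91. Their slopes in the other 25 tumors were positive and passed (adjusted p = 0.0124 and 0.023). None of 26 fibroblast and dermal matrix genes (median 0.05, COL1A2 0.47, DCN -0.06) and none of 13 endothelial genes (median 0.36, VWF 0.62, KDR -0.58) was called. Of 14 M phase genes ANLN, a cytokinesis protein, was called higher by 1.11 ± 0.29 (SE, adjusted p = 0.0053). It was not called with slide as a fixed block (1.12, adjusted p = 0.088), with the share of probes above background as a covariate (0.84, adjusted p = 0.11) or without T102, T103 or T87. The list's median was 0.69. Ribosomal protein genes had a median of 0.00 with no call (RPL8 0.04).

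The 10 named genes with the largest decrease are known from different cell types. CC2D2B, a ciliary gene, was at 2.04, 3.63 and 6.96 in the high-score tumors and 2.14, 6.49 and 8.98 in the low-score tumors, a difference of -2.61 ± 0.66 (SE, adjusted p = 0.0048), and was well above background on 4 high-score and 11 low-score arrays. MYBPC3, a cardiac myosin-binding protein, differed by -1.66 ± 0.44 (SE, adjusted p = 0.0063). FCRL1 and FCRL2, Fc receptor-like proteins of lymphocytes, differed by -1.59 ± 0.34 (SE, adjusted p = 0.00098) and -1.48 ± 0.29 (SE, adjusted p = 0.00053). TIMD4, a phosphatidylserine receptor of macrophages, differed by -1.59 ± 0.35 (SE, adjusted p = 0.0017), PLAC8 by -1.52 ± 0.38 (SE, adjusted p = 0.0041) and SERPINB9, the inhibitor of granzyme B, by -1.53 ± 0.27 (SE, adjusted p = 0.00018). ERP27, ADCY7 and PTPRD, an endoplasmic reticulum protein, an adenylate cyclase and a receptor phosphatase, differed by -1.56, -1.55 and -1.54 (adjusted p = 0.0017, 0.0035 and 0.00049). The groups overlapped for all 10, and none passed the slope test in the other 25 tumors. Not 1 of the 10 was called when slide entered as a fixed block, where their differences were -3.23 (CC2D2B) to -0.80 (MYBPC3). MYBPC3 was also lost without T103, T107, T121, T130, T135, T30, T47, T50, T81 or T92. With the share of probes above background as a covariate CC2D2B (-1.91, adjusted p = 0.12), MYBPC3 (-1.63, adjusted p = 0.052), ERP27 (-1.60, adjusted p = 0.0174), PTPRD (-1.05, adjusted p = 0.044), PLAC8 (-1.40, adjusted p = 0.053) and FCRL2 (adjusted p = 0.047) were not called.

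Some lower probes were picked for their behavior after their values were seen. RABGAP1L, a Rab GTPase-activating protein at chr7:27511402-27511461, was 1 of the 2 called lower without overlap, at 8.97, 9.42 and 9.93 against 10.23, 10.53 and 11.29 and a difference of -1.11 ± 0.11 (SE, adjusted p = 1.8e-08). The other is a probe without a gene name. Of the 7 probes called lower that also had a negative slope that passed, 5 have a gene symbol: PLEKHA2, FAM78B, CACNG1, GPSM3 and CD38. CD38, an enzyme of leukocytes that consumes NAD, differed by -1.02 ± 0.24 (adjusted p = 0.0026) and had a slope of -0.86 ± 0.15 (adjusted p = 0.00076). CACNG1, a calcium channel subunit, differed by -1.09 ± 0.18 with a slope of -0.57 ± 0.12 (adjusted p = 0.0042). With slide as a fixed block RABGAP1L (-0.86, adjusted p = 0.0061), CD38 (-0.84, adjusted p = 0.079) and CACNG1 (-0.82, adjusted p = 0.04) were not called. CD38 was also lost without T113, T121, T30, T47, T50, T61, T62 or T92, and CACNG1 without T47.

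**Figure D5:**
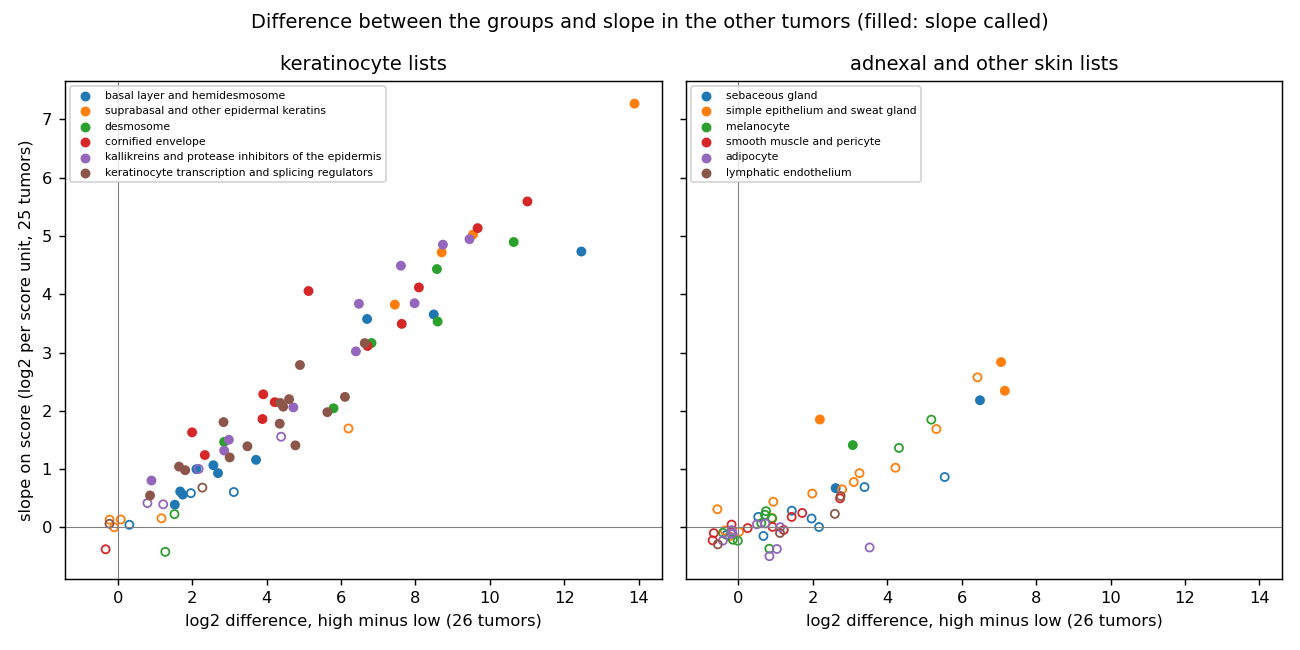
Slope on the score in the 25 tumors of neither group (log2 units per unit of score, y axis) against the log2 difference between the 13 high-score and 13 low-score tumors (x axis), 1 point per gene for 6 keratinocyte lists (left) and 6 lists of appendages and other skin cells (right), filled where the slope passed. Genes of the keratinocyte lists reach slopes of 7.27 (KRT1), while the other lists end at 2.84 (KRT19). The 2 axes share no tumor, but both rest on the same score probes.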

How the data were processed

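Total RNA of 51 MCTs was hybridized to 1-colour Agilent Canine V2 arrays. The authors deposited scanner output in which each spot carries a background-subtracted, processed intensity, and a table of their normalized values. That table was taken as log2 here and used as an alternative. The processed signal was taken as log2 after control spots (1417 of them) were left out, and was quantile-normalized over the 51 arrays. Outlier spots were left out after this normalization. Groups were cut from the score described above, and the members, gene lists and tests were chosen with earlier results of these data known. Differences and slopes were fitted with limma 3.58.1 in R 4.3.3 with Benjamini-Hochberg adjustment over 43594 probes, and the code was checked on simulated data. The SAM procedure of the study was not used. Of the probes, 19122 carried 1 of 11636 gene symbols, and 126 whose file name and RefSeq symbol conflict, together with unnamed ones, were left unnamed. A list took the brightest probe of each gene, and fold bounds ("at least") compare the mean of the high-score tumors with the dimmest signal that stood well above background in each low-score array. Named genes were the 10 symbols with the largest call in each direction measured well above background on 7 or more arrays of the brighter group of 13, up to 4 called genes per list with the largest changes, or the 2 brightest where none was called. Genes outside this rule are named as such, or were chosen from the lists to complete an account of uncalled members. A few genes that this rule would name are not reported here. Every sample is a separate tumor, so p-values set a difference or slope against the spread between tumors. Those of the group comparison take the groups as given, although these are the ends of a ranking on the score. The number of arrays limits the precision.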

Additional observations from a re-analysis of the deposited data

Results flagged for a closer look

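The slope on the score differed between the 39 differentiated and the 12 undifferentiated tumors for 2 probes, which is why they are listed here. Neither has a gene name in the files. The probe A_11_P067581 at chr24:30293908-30293967 had a slope of 1.07 ± 0.09 (SE) log2 units per unit of score in the differentiated and 0.06 ± 0.12 in the undifferentiated tumors, a difference of -1.01 (limma, adjusted p = 0.0032). The probe TC64244 at chr17:63966810-63966869 had slopes of 0.33 ± 0.06 and -0.27 ± 0.08, a difference of -0.60 (adjusted p = 0.041). This fit was added after the data had been seen, and the cause was not tested.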

How the results depend on the processing

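With 1 choice changed at a time, 1095 probes were called higher and 40 lower after normexp background correction (96.5% of calls higher, against 87% as reported), 981 and 22 with slide as a fixed block (97.8%), and 2322 and 187 after 75th percentile normalization. Calls lower numbered 206 with scan session as a fixed block, 162 with the share of probes above background as a covariate, an alternative added after the data had been seen, and 479 at an adjusted p below 0.05. Leaving out 1 tumor at a time gave 1992 to 2242 probes higher and 223 to 409 lower. Slopes passed for 605 probes upwards and 35 downwards in the 12 undifferentiated tumors alone and for 425 and 75 in the 13 tumors in between alone, both with fewer samples. The other alternatives, among them the authors' table, sex, age, dim probes left out, slide as a random block, 10 against 10 tumors and a score with 1 value per gene, kept both counts within 1.5 times. A score with 1 value per gene, or without the KRT5 probe that lies apart, shared 11 of 13 high-score and 12 of 13 low-score tumors with the groups used. Of the differences of named genes under alternatives other than leaving out 1 tumor, 1476 kept direction and call and 129 kept direction but lost the call. Scan session as a fixed block left FCER1G, GATA1, KITLG, MYH11, TAGLN, MCAM, RELN, S100A9, ANLN, MYBPC3, PLAC8, TIMD4 and CACNG1 uncalled. Sex as a covariate did so for GATA1, MYBPC3 and CD38. The sign turned for 3 uncalled values: RPL8 (-0.16) under 75th percentile normalization, CD3D (0.00795) with slide as a fixed block, and DCN (0.043) with 10 against 10 tumors. With the mean of all probes of a gene in place of the brightest, list medians moved to 2.07 for the basal layer, 1.95 for suprabasal keratins, 2.05 for barrier lipid synthesis, 1.31 for hair follicle and 6.77 for KRT14, and under 75th percentile normalization to -0.15 for ribosomal proteins. The cause was not tested. No paired analysis was possible because every sample is a separate tumor and the labels name no pairs. Genes at background in the low-score tumors have only a bound, so the size of their difference is limited by the signal an array can separate from background.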

Other observations

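Of 384 listed genes with a probe, 159 had more than 1. For 5 of them the brightest probe was not called but another probe was called higher. The brightest and the highest difference were 0.11 and 6.93 for SULT2B1, a sulfotransferase of cholesterol, 0.80 and 3.33 for ST14, the protease matriptase, and 0.50 and 3.81 for MSX2, a homeobox factor of hair follicle. PI3, an elastase inhibitor, and PMEL, a melanosome protein, were the others. For KLK7 the second probe differed by -0.19, against 9.46 for the named one, and for KRT24 the lowest of 3 probes differed by -0.28, against 6.2.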
